A study of Mus musculus with 9 samples.

Results

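The Schlafen family was followed through 9 poly(A) RNA sequencing libraries of RAW264.7 cells, an established mouse macrophage line that is a single transformed line and no primary macrophage. Its members here were the 7 genes Slfn1, Slfn2, Slfn3, Slfn4, Slfn5, Slfn8 and Slfn9, taken by gene name from a table of 26146 genes, and all 7 names were found there. The study compared normal cells, a model in which the cells received lipopolysaccharide (LPS), the cell wall component of Gram-negative bacteria that Toll-like receptor 4 recognises, and cells given LPS together with an extract of Traditional Chinese Medicine. There were 3 libraries in each group.

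The group names need a caution that holds for every comparison below. The labels tie the samples titled LPS to the table columns named ET but to libraries named M, and the samples titled LPS+Extract to the columns named M but to libraries named ET. The groups are therefore called Normal, ET and M after their columns. By the columns, ET stands for LPS without and M for LPS with the extract, and by the library names the reverse holds, so that a difference between M and ET changes its meaning with the reading while a difference of both from Normal does not. No plant, dose or exposure time is given in the labels, and the replicates are not said to be separate cultures, so a p-value measures only the spread between these libraries.

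Total counts per library lay between 55039858 and 76242718. The first principal component of all tested genes held 91.3% of the variance and parted Normal from both treated groups, and the second held 2.74% and parted ET from M. On that second axis ET replicate 3 stood at 6.07, nearer to M (-11.3 to -10.3) than ET replicates 1 and 2 (13.4 and 13.6), so the members' differences between M and ET, and the counts of gene lists, are also given without it. Of 8 macrophage markers all were in the table, and their summed CPM (counts scaled to library depth) ranged over 4339 to 4553 (Normal), 5340 to 5637 (ET) and 5191 to 5376 (M). The macrophage markers did not move together. Csf1r (mean CPM of 1915, 1209 and 1120 in Normal, ET and M) and Lyz2 (1355, 961 and 796) were lower in the treated groups. Cd14 (360, 1812 and 1922), Adgre1 (51.6, 195 and 210), Itgam (144, 473 and 489) and Cd68 (472, 675 and 618) were higher. Fcgr1 was at 137, 138 and 127. Of these markers, Mertk was at 0 in all libraries other than M replicate 2, which had 8 counts. The T cell markers in the table (4 of 6) summed to 2.46 to 2.99, 7.89 to 8.82 and 7.55 to 8.86 CPM in the same order, nearly all of it Lck, with Cd4, Cd3d and Cd8b1 at or near 0. The B cell markers (4 of 5) summed to 0.204 to 0.946, 1.66 to 3.68 and 2.01 to 2.34 CPM. The neutrophil markers (5 of 6) summed to 0 to 0.126, 28.7 to 35.6 and 31.7 to 36.2 CPM, nearly all of it S100a8, with Mpo, Elane and Cxcr2 at or near 0. The fibroblast markers (4 of 4) summed to 0.265 to 0.373, 1.27 to 2.38 and 2.83 to 3.54 CPM, with Dcn the highest in ET (1.53 CPM) and M (3.02 CPM) and at 0 in Normal. These sums moved with the treated groups, and their part in the Schlafen levels was not tested. In bulk RNA a change in the share of expressing cells and a change in RNA per cell cannot be told apart.

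Schlafen genes were first found in developing mouse thymocytes as regulators of growth, and their name is the German word for sleeping. The proteins share an N-terminal core domain that in several members binds or cleaves transfer RNA. By length, the 7 members followed here are grouped into short (Slfn1 and Slfn2), intermediate (Slfn3 and Slfn4) and long proteins (Slfn5, Slfn8 and Slfn9). The long ones have a helicase-like C-terminal region. Several members are known as interferon-stimulated genes in myeloid cells. Type I interferon, secreted after Toll-like receptor 4 has signalled, acts through the receptor subunits Ifnar1 and Ifnar2, the kinases Jak1 and Tyk2, and transcription factors that bind the interferon-stimulated response element.

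All 7 members lay in 1 cluster on mouse chromosome 11. With the pseudogene Slfn10-ps and the antisense transcript Slfn5os, the 9 Schlafen rows of the cluster spanned 82942341 to 83215154, or 272814 bp. The coordinates are those of the deposited table, whose rows for the members matched GENCODE M21 on GRCm38 with the exception of Slfn5, for which the end differed. The short genes were Slfn2 (83065112 to 83070678, plus strand, a coding length of 378 codons) and Slfn1 (83116849 to 83122670, plus strand, 337 codons). The intermediate genes were Slfn4 (83175186 to 83190216, plus strand, 602 codons) and Slfn3 (83191330 to 83215154, plus strand, 640 codons). The long genes were Slfn5 (82951349 to 82961906, plus strand, 884 codons), Slfn9 (82978390 to 82991830, minus strand, 910 codons) and Slfn8 (83002158 to 83020810, minus strand, 910 codons).

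The promoters of the members are shown because the genes moved together in direction. RefSeq sequences (GRCm38.p6) of 250 bases before to 50 bases after the annotated start were found for 7 of 7 members, with a second start for Slfn8, and were searched on both strands. The RefSeq start of Slfn5 lay 753 bp after the start of its row in the table, so its promoter window falls inside that row. That of Slfn1 lay 29 bp before the start of its row, and the second start of Slfn8 lay 88 bp after that of its row. The first start of Slfn8 and the starts of the other members coincided with their rows. The core of the interferon-stimulated response element, read as GAAA, any 2 bases and GAAA, occurred in 3 of 7 members, Slfn5, Slfn8 and Slfn9, and in 3.99% of 27025 genes with a promoter sequence. The following stretches give that core in capitals, each written 5′ to 3′ along its gene.
Slfn5: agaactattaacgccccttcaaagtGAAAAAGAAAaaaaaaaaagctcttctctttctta
Slfn8: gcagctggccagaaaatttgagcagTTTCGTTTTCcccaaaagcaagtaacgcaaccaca
Slfn9: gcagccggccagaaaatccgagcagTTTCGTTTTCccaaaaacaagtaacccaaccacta
The Slfn5 stretch was chr11:82951922-82951981 (plus strand), with the core from 155 to 146 bases before the RefSeq start and inside the row of the table. The Slfn8 stretch was chr11:83020824-83020883 (minus strand), with the core from 48 to 39 bases before the start, and that of Slfn9 was chr11:82991841-82991900 (minus strand), with the core from 45 to 36 bases before it. In Slfn8 and Slfn9 the core stood on the strand opposite to the gene. The promoters of Slfn8 and Slfn9 were 80.5% identical when aligned, so these matches share a sequence, whereas the other pairs of members were 41.9 to 49.4% identical.

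The shorter core AAANNGAAA, which also overlaps every match above, was present in 5 of 7 members (Slfn1, Slfn4, Slfn5, Slfn8 and Slfn9) and in 12.1% of genes. The gamma-activated sequence TTCNNNGAA was found in 0 of 7 and in 9.55% of genes, and the kappaB letters, read as GGG, any 3 bases and TTCC, in 0 of 7 and in 6.31% of genes. The 4 members of the short and intermediate groups had in common the letters ACTTCCTG, the core of an Ets-type element, which 3.86% of genes hold. That element was looked for after the sequences had been seen. It is in capitals below, and Slfn3 held it a second time on the other strand, from 60 to 53 bases before the start.
Slfn1: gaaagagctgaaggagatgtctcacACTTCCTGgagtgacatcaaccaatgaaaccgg
Slfn2: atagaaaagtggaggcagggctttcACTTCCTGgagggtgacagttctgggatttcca
Slfn3: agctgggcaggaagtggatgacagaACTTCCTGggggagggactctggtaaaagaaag
Slfn4: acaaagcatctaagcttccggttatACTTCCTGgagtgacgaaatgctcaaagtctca
The element began 74 bases before the start in Slfn1 (stretch chr11:83116721-83116778), 55 in Slfn2 (chr11:83065032-83065089), 42 in Slfn3 (chr11:83191263-83191320) and 73 in Slfn4 (chr11:83175088-83175145), all on the plus strand. Slfn1 and Slfn4, neighbours in the cluster, shared an unbroken run of 15 bases there. A match describes letters in these windows and is no evidence of a bound factor.

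All 7 members rose in ET against Normal and all 7 rose in M against Normal, but by very unequal amounts. Slfn1, Slfn2 and Slfn5 rose 14.9-fold or more, Slfn4 rose 4.29-fold in ET, and Slfn3, Slfn8 and Slfn9 rose less than Slfn4 in both groups. Changes are log2 fold changes of counts scaled by trimmed mean of M values (TMM), from edgeR's quasi-likelihood test. Unless another fit is named, every adjusted p is its Benjamini-Hochberg value over 11536 tested genes, called at 0.05. Where a library is left out or another filter or method is named, the adjusted p comes from that fit and its own tested genes. Of those genes, 35.0% were called higher and 35.2% lower in ET, and 35.5% higher and 34.5% lower in M, so a call in itself was common. Slfn1 and Slfn5 passed the filter (at least 1 FPKM, fragments scaled by gene length and library depth, in 3 of 9 libraries) only through treated libraries, so they had to differ and are left out of the medians. The 5 other members had a median change of 0.72 in ET and 0.90 in M on the log2 scale, beside -0.02 and -0.01 over all tested genes. ET and M share the Normal libraries as their control. Without ET replicate 3, 6 of 7 members were called in ET, Slfn9 no longer. The 3 members with the core GAAA, any 2 bases and GAAA in their promoter were the strongly raised Slfn5 and, with changes below 1 on the log2 scale, Slfn8 and Slfn9.

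**Figure D1:**
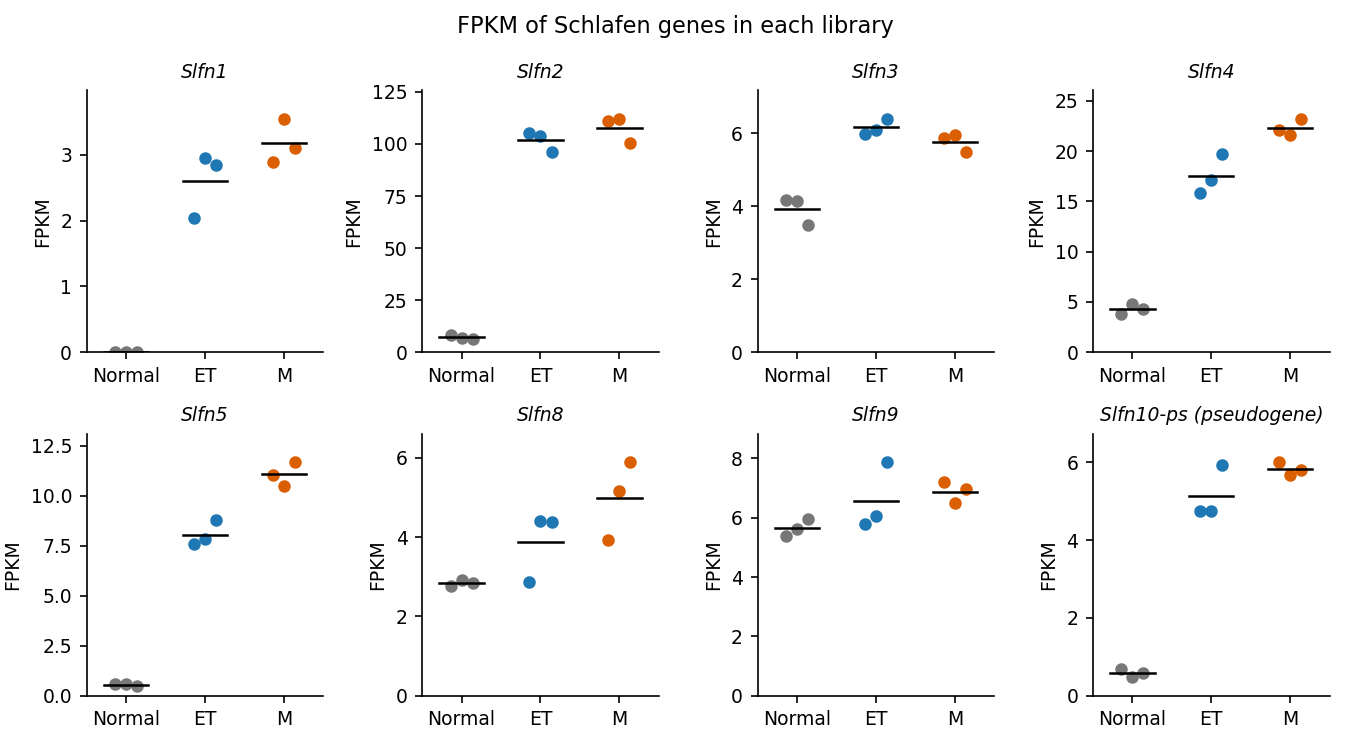
FPKM (linear vertical axis, starting at 0, scaled per gene) of the 7 Schlafen genes and the pseudogene Slfn10-ps in the 3 Normal, 3 ET and 3 M libraries; each point is 1 library, in replicate order, and the bar is the group mean. Slfn2 went from 6.26 to 8.44 FPKM in Normal to at least 96.2 in every treated library, while Slfn9 stayed between 5.40 and 7.88 in all 9.

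Slfn2, a short member needed for the quiescence of T cells and known to protect transfer RNAs from stress-induced cleavage, was the most abundant member in all 9 libraries per length. Its level was 8.44, 6.83 and 6.26 FPKM in Normal replicates 1 to 3, 105, 104 and 96.2 in ET, and 111, 112 and 101 in M. Every treated library stood more than 10 times as high as any Normal library, and ET and M overlapped. On the scaled count the groups averaged 12.4 ± 1.99 (Normal), 185 ± 8.52 (ET) and 197 ± 12.3 CPM (M; SD, n = 3 each). The log2 fold change was 3.90 (SE 0.0936, edgeR adjusted p = 1.38e-12) in ET and 3.996 (SE 0.0939, edgeR adjusted p = 1.02e-12) in M.

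Slfn1, the other short member, known for slowing the growth of thymocytes when overexpressed, had 0 counts in all 3 Normal libraries. It had 256, 324 and 344 counts in ET and 351, 409 and 366 in M. Per length this was 2.03, 2.95 and 2.84 FPKM in ET and 2.89, 3.55 and 3.10 in M, which left it the lowest member in both treated groups. It was thus seen in every treated library and in no Normal one. With a floor of 3 counts per Normal library (0.0378 to 0.0509 CPM), it was at least 117-fold higher in ET and at least 144-fold higher in M (edgeR adjusted p = 3.17e-09 and 2.24e-09). Floors cover counting error only.

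Slfn4, an intermediate member known from monocytes and macrophages, where it goes down as the cells differentiate and up with activation, was second in both treated groups per length. It was at 3.84, 4.77 and 4.30 FPKM in Normal, 15.8, 17.2 and 19.7 in ET, and 22.1, 21.6 and 23.2 in M. The 3 groups did not overlap, with Normal lowest and M highest. The log2 fold change from Normal was 2.101 (SE 0.0881, edgeR adjusted p = 3.06e-10) in ET and 2.46 (SE 0.0888, edgeR adjusted p = 7.01e-11) in M, which are 4.29-fold and 5.49-fold.

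Slfn3, the other intermediate member, studied mostly in the differentiation of the rodent gut epithelium, lies directly after Slfn4 on the chromosome. Its levels were 4.17, 4.14 and 3.47 FPKM in Normal, 5.98, 6.10 and 6.40 in ET, and 5.86, 5.94 and 5.47 in M. Normal was below both treated groups, and M lay just under ET without overlap. The change was 0.72 (SE 0.0859, edgeR adjusted p = 7.76e-06) in ET and 0.64 (SE 0.0860, edgeR adjusted p = 2.48e-05) in M on the log2 scale. In Normal its FPKM range overlapped that of Slfn4. In each treated library Slfn4 had 3.07 to 4.94 counts per count of Slfn3, against 1.07 to 1.44 in Normal, a ratio within a library that no scaling touches.

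Slfn5, a long nuclear member known as interferon-induced, was nearly silent in Normal. It stood at 0.583, 0.559 and 0.473 FPKM in Normal, 7.56, 7.83 and 8.76 in ET, and 11.02, 10.5 and 11.7 in M. The groups did not overlap, and Slfn5 passed from sixth of 7 members in Normal to the third in both treated groups, with its range in ET overlapping that of Slfn9. The change from Normal was 3.97 (SE 0.0914, edgeR adjusted p = 9.05e-13) in ET and 4.44 (SE 0.0924, edgeR adjusted p = 3.24e-13) in M on the log2 scale. With limma on log2(FPKM + 1), which understates the change of genes this low, the value in ET was 2.56.

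Slfn8 and Slfn9, long members of 910 codons each with related promoters, had the smallest changes in ET. Slfn8 was at 2.77, 2.93 and 2.84 FPKM in Normal, 2.87, 4.40 and 4.37 in ET, and 3.92, 5.17 and 5.89 in M. ET replicate 1 lay within the Normal range in FPKM, and the treated libraries varied more among themselves than the Normal ones (CPM of 12.1 ± 0.285 in Normal, 17.3 ± 3.87 in ET and 22.5 ± 4.41 in M, SD, n = 3). The change was 0.52 (SE 0.166, edgeR adjusted p = 0.0135) in ET and 0.90 (SE 0.166, edgeR adjusted p = 0.00036) in M on the log2 scale. The call in ET was lost without ET replicate 2 (0.43, edgeR adjusted p = 0.0571) and with limma on log2(FPKM + 1) (0.33, adjusted p = 0.0635).

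Slfn9 was the second member per length in Normal and the fourth in ET and M, although its own level moved little. It was at 5.40, 5.60 and 5.97 FPKM in Normal, 5.81, 6.05 and 7.88 in ET, and 7.195, 6.49 and 6.96 in M. ET replicate 1 lay inside the Normal range in FPKM, ET replicate 3 was the highest of all libraries, and every M library was above every Normal one. The change was 0.29 (SE 0.101, edgeR adjusted p = 0.0203) in ET and 0.37 (SE 0.101, edgeR adjusted p = 0.00567) in M on the log2 scale. The call in ET rested on single libraries. Without ET replicate 3 the change was 0.15 (edgeR adjusted p = 0.0649), and the call was also lost without Normal replicate 1 (adjusted p = 0.0731) and without Normal replicate 2 (adjusted p = 0.0503). Scaling by total counts only, which lowered the median change of all genes by less than 0.1, gave 0.22 (adjusted p = 0.0729). With limma on log2(FPKM + 1) the change in M was 0.24 and remained called.

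**Figure D2:**
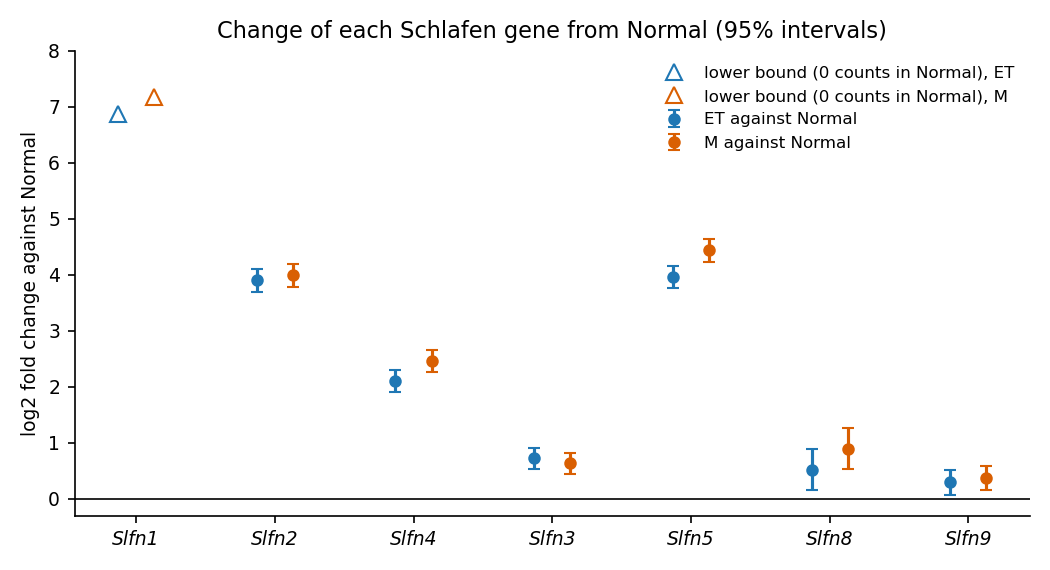
Log2 fold change (vertical axis) of each Schlafen gene in ET (blue) and M (orange) against Normal; points are edgeR estimates with 95% intervals and open triangles are the lower bounds of Slfn1, which had 0 counts in Normal. Slfn2 and Slfn5 stand near 4, Slfn4 near 2, and Slfn3, Slfn8 and Slfn9 below 1.

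The unequal rises changed the make-up of the family's RNA. The summed level of the 7 genes was 24.5 ± 1.002 FPKM (SD, n = 3) in Normal, 147 ± 1.505 in ET and 162 ± 4.57 in M. Slfn2 held 29.3 ± 3.65% of that sum in Normal, 69.4 ± 3.34% in ET and 66.5 ± 2.13% in M. Slfn9 held 23.2% in Normal and 4.49% in ET, Slfn3 16.0% and 4.20%, and Slfn8 11.6% and 2.65%, so their shares were smaller in ET although their own levels were higher. Slfn5 had a larger share after treatment, with 2.197 ± 0.149% in Normal, 5.495 ± 0.437% in ET and 6.84 ± 0.559% in M. Slfn4 held 17.6%, 12.0% and 13.8% in Normal, ET and M, but 18.7%, 18.7% and 20.8% when counts took the place of FPKM, so a lower share in ET is not seen on both scales. In Normal the order per length was Slfn2, Slfn9, Slfn4, Slfn3, Slfn8, Slfn5 and Slfn1, where Slfn4 and Slfn3 overlapped. In ET and M it was Slfn2, Slfn4, Slfn5, Slfn9, Slfn3, Slfn8 and Slfn1, where in ET Slfn5 overlapped Slfn9, Slfn9 overlapped Slfn3 and Slfn8 overlapped Slfn1, and in M only Slfn3 and Slfn8 did.

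**Figure D3:**
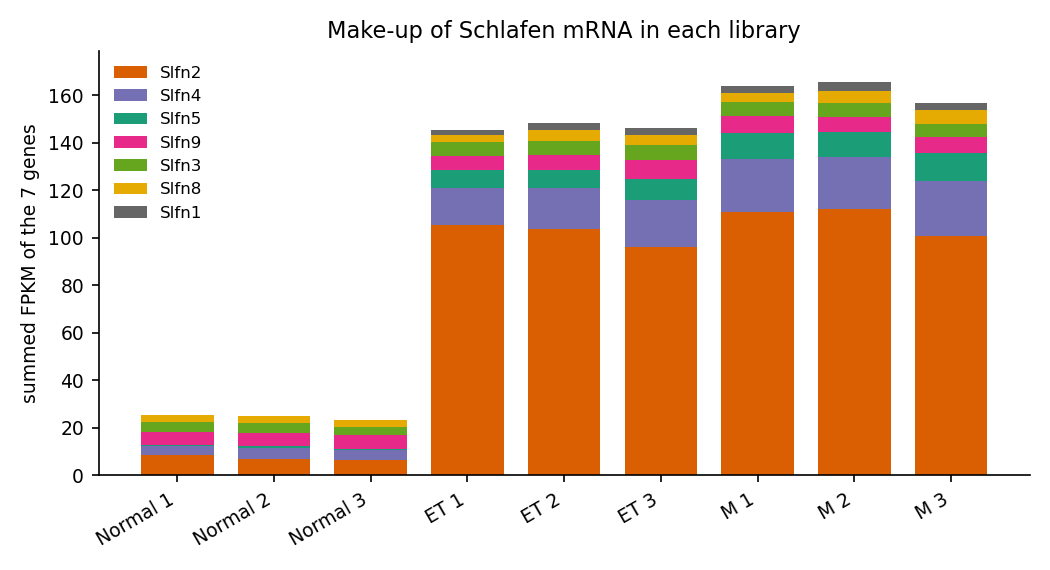
Summed FPKM of the 7 Schlafen genes (vertical axis, from 0) in each of the 9 libraries, stacked by gene. In Normal the bars reach 23.3 to 25.2 FPKM, those of ET 145 to 148 and those of M 157 to 165, and Slfn2 is the largest block in every library.

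Between the treated groups, 2 of 7 members, Slfn5 and Slfn4, were called higher in M than in ET, 0 were called lower and 5 were not called. Of all tested genes 4.97% were called higher and 4.12% lower in this comparison (573 and 475 genes), and with limma on log2(FPKM + 0.1) the split was 339 higher and 421 lower. The median change was 0.30 on the log2 scale over the 7 members and 0.10 without Slfn1 and Slfn5, beside 0.00293 over all genes. Slfn5 was at 52.3 to 60.7 CPM in ET and 73.0 to 81.0 CPM in M, a log2 difference of 0.47 (SE 0.0756, 95% interval 0.30 to 0.63, edgeR adjusted p = 0.00248), or 1.38-fold. Its 3 M libraries were all above its 3 ET libraries, and the call held with each library left out in turn and in every other fit run (0.42 to 0.53), although the difference is under a 1.5-fold threshold. Slfn4 was at 68.5 to 85.3 CPM in ET and 93.9 to 101 CPM in M, a log2 difference of 0.36 (SE 0.0823, 95% interval 0.18 to 0.54, edgeR adjusted p = 0.0195), or 1.28-fold. The Slfn4 call was lost without ET replicate 1 (0.28, adjusted p = 0.0748), ET replicate 2 (0.34, 0.0831), M replicate 1 (0.36, 0.0618) or M replicate 3 (0.32, 0.0791).

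The other 5 members did not pass the test, which does not show that they were alike in the treated groups. The log2 difference of M from ET was 0.37 for Slfn8 (95% interval 0.02 to 0.73, edgeR adjusted p = 0.177) and 0.30 for Slfn1 (-0.10 to 0.70, adjusted p = 0.341). For Slfn2, the most abundant member, the interval was narrow around 0.10 (-0.08 to 0.27, adjusted p = 0.491). For Slfn9 it was 0.08 (-0.14 to 0.30, adjusted p = 0.687). Slfn3 was the member with a lower value in M, at -0.09 (-0.27 to 0.10, adjusted p = 0.574), and although its groups did not overlap in CPM, this lay well within the fit's error. Without ET replicate 3 the differences were larger for Slfn5 (0.53, edgeR adjusted p = 0.000828) and Slfn4 (0.44, adjusted p = 0.00199), and Slfn9 was then called too (0.22, adjusted p = 0.0491), which made 3 of 7. In that fit 9.80% of all tested genes were called higher and 6.14% lower, so calls became more frequent over all genes as well. ET replicate 3 was left out because it lay nearer to M than the other ET libraries on the second axis. Larger differences without it are therefore favoured by that choice and are no added support. The 4 other members stayed uncalled, at 0.47 for Slfn8, 0.36 for Slfn1, 0.05 for Slfn2 and -0.06 for Slfn3. Under the library names in place of the columns, every sign turns. Members with a higher value in M then read as lower with the extract, and Slfn3 as higher.

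**Figure D4:**
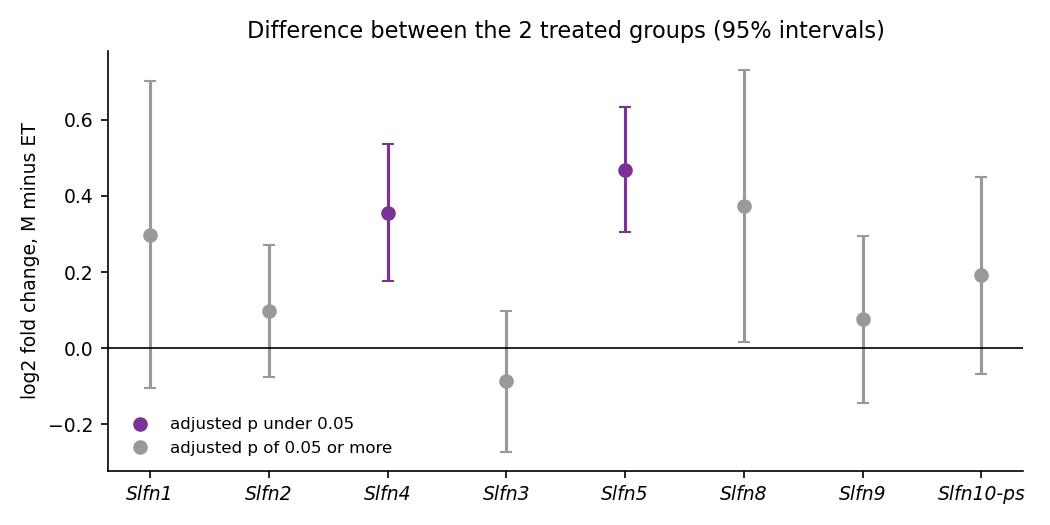
Log2 fold change of M against ET (vertical axis) for each Schlafen gene and Slfn10-ps, with 95% intervals from edgeR; purple marks an adjusted p under 0.05. Only Slfn5 (0.47) and Slfn4 (0.36) are called, and the intervals of the others other than Slfn8 reach across 0.

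Ratios of counts within a library, chosen after the values were seen, describe the same differences without any scaling between libraries. Slfn5 had 0.264 counts per count of Slfn2 in Normal replicate 1, 0.312 in replicate 2 and 0.290 in replicate 3. The ratio was 0.273, 0.287 and 0.346 in ET and 0.377, 0.356 and 0.442 in M. ET overlapped Normal, and the M libraries were all higher than the ET libraries (two-sided exact permutation test of M against ET, p = 0.1, the smallest that 3 against 3 allows). Slfn4 had 3.07, 3.27 and 3.57 counts per count of Slfn3 in ET and 4.38, 4.21 and 4.94 in M (exact permutation p = 0.1, again the smallest possible). For Slfn4 per Slfn2 the groups overlapped (0.358, 0.395 and 0.487 in ET, 0.474, 0.458 and 0.551 in M, exact permutation p = 0.3). For Slfn8 per Slfn9 they overlapped as well (0.340, 0.499 and 0.381 in ET, 0.374, 0.547 and 0.581 in M, exact permutation p = 0.3).

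The table held 3 further rows with a Schlafen name. Slfn10-ps, a pseudogene between Slfn8 and Slfn2, was at 0.683, 0.492 and 0.582 FPKM in Normal, 4.74, 4.76 and 5.94 in ET, and 6.01, 5.68 and 5.82 in M. It rose by 3.21 (SE 0.137, edgeR adjusted p = 3.54e-10) in ET and 3.40 (SE 0.137, adjusted p = 2.03e-10) in M on the log2 scale, beside 0.52 and 0.90 for its neighbour Slfn8. It was below 1 FPKM in every Normal library and so passed the filter only through treated libraries. Between M and ET it was not called, with all libraries (0.19, edgeR adjusted p = 0.347) or without ET replicate 3 (0.30, adjusted p = 0.113). Its transcripts shared 2.51% of their words of 150 bases, the length of a read, with Slfn9 and 0% with Slfn8. Of its words of 75 bases 11.5% occurred in another gene, and of those of Slfn8 4.98% occurred in Slfn10-ps. The part of shared reads in these counts was not tested. Slfn5os, antisense to Slfn5, had 0 counts in 8 libraries and 6 in the other, and Slfnl1, on chromosome 4, had at most 4. The library protocol marks the strand, but whether the counting used it no source used here states. Slfn5 shared 5.46% of its words of 150 bases with Slfn5os, Slfn9 1.46% with Slfn10-ps and Slfn3 1.29% with Gm11427, and the other members 0%, at that length. The predicted gene Gm20234, antisense over Slfn2, had 0 to 15 counts against 635 or more for Slfn2.

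The genes around the cluster changed in both directions or were not called. Within 300 kb of the outer ends of its Schlafen rows lay 27 rows without a Schlafen name, of which 12 were tested. In the mean of ET and M against Normal, where 36.8% of all tested genes were called higher and 36.8% lower, 3 of the 12 were higher, 1 was lower and 8 were not called, with a median log2 change of 0.04. In ET alone 4 were higher, 4 lower and 4 not called, and in M alone 3 were higher, 1 lower and 8 not called. In the mean of ET and M the 5 Schlafen members other than Slfn1 and Slfn5 had a median of 0.71. The adaptor subunit gene Ap2b1 averaged 144 ± 4.11 (Normal), 184 ± 7.54 (ET) and 193 ± 3.21 CPM (M; SD, n = 3; log2 change 0.39, edgeR adjusted p = 4.84e-07). Gm11425, a processed pseudogene inside the cluster, averaged 1.24 ± 0.0703, 3.53 ± 0.564 and 4.13 ± 0.703 CPM in the same order (1.62, edgeR adjusted p = 2.48e-06). Between M and ET, 2 of the 12 were higher in M, and both, AI662270 (0.18, edgeR adjusted p = 0.0179) and Gm11427 (0.33, adjusted p = 0.0288), lie beyond the Slfn3 end and overlap each other. Without ET replicate 3, 3 of the 12 were higher and 0 lower, the third being Taf15 (0.20, edgeR adjusted p = 0.0262). Of all tested genes 4.97% were called higher in M with all libraries and 9.80% in this fit.

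**Figure D5:**
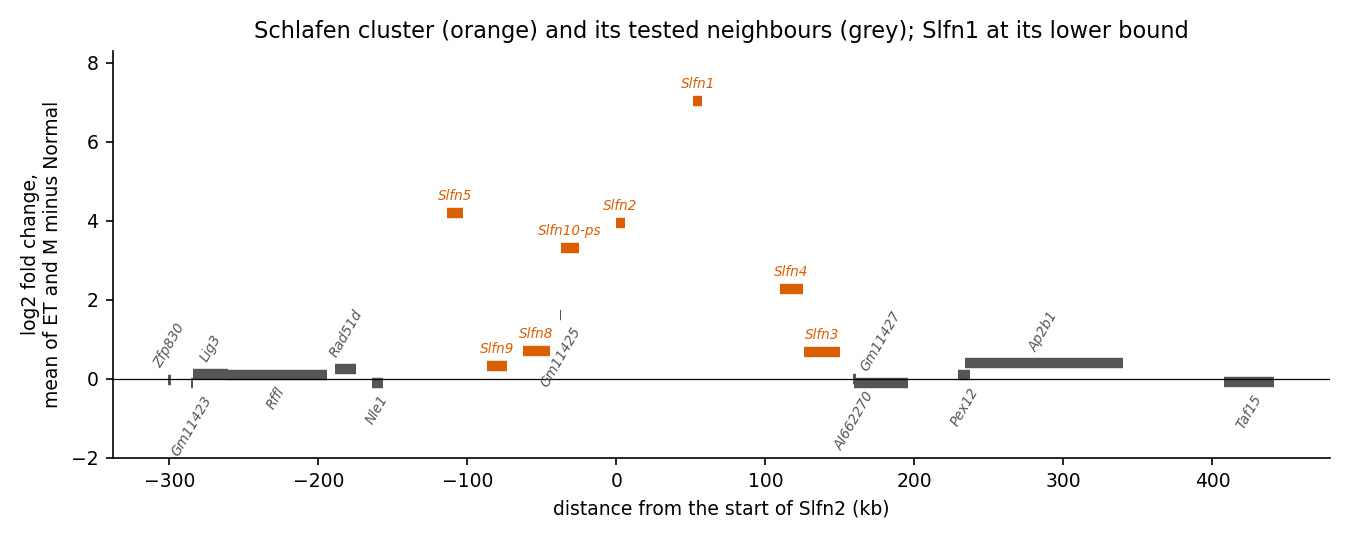
Log2 fold change of the mean of ET and M against Normal (vertical axis) of the Schlafen rows (orange, Slfn1 at its lower bound) and the 12 tested neighbours (grey), against distance from the start of Slfn2 in kb; bar length is the gene's span. Schlafen bars lie above 0, from 0.33 for Slfn9 upward, while most grey bars lie near 0, with Ap2b1 (0.39) and Gm11425 (1.62) higher than Slfn9.

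Genes of the interferon pathway, which is known to act on Schlafen genes, changed in the same libraries, some up and some down. Of 13 genes for type I interferon, its receptor and its signalling, 12 were tested, and in the mean of ET and M against Normal 8 were higher, 4 were lower and 0 were not called, with a median log2 change of 0.77. Over all tested genes 36.8% were higher and 36.8% lower in that contrast. Of the 12, 1 was below 1 FPKM in every Normal library, and the other 11 had a median of 0.57. Irf7, the factor that amplifies interferon production, averaged 4.69 ± 0.478 (Normal), 392 ± 11.9 (ET) and 488 ± 12.4 CPM (M; SD, n = 3; log2 change 6.55, edgeR adjusted p = 1.56e-15). The 4 that fell were the receptor subunit Ifnar2 (by 0.66), the kinase Tyk2 (by 0.48) and the factors Irf1 (by 0.95) and Irf3 (by 0.48 on the log2 scale). Ifnb1, interferon beta, was not tested, with 0 counts in Normal, 4, 6 and 4 in ET, and 0, 8 and 24 in M.

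Another list held 14 genes under the heading of interferon-induced restriction of RNA and translation. That heading does not describe the action of each gene. Of its genes, 13 were higher and 1 was lower in the mean of ET and M against Normal, with a median of 3.45. Of these, 4 were below 1 FPKM in every Normal library and had to differ, and the other 10 (9 higher, 1 lower) had a median of 1.46. Oas3, a sensor of double-stranded RNA, averaged 14.8 ± 1.02 (Normal), 245 ± 4.54 (ET) and 288 ± 5.35 CPM (M; log2 change 4.16, edgeR adjusted p = 3.52e-15). Oas1a, of the same family, averaged 22.9 ± 0.514, 173 ± 6.87 and 186 ± 1.66 CPM in that order (2.97, edgeR adjusted p = 9.01e-15). Between M and ET, 3 of the 12 signalling genes were higher in M, among them Stat2 (0.39) and Irf7 (0.32), and 9 were not called, where 4.97% of all tested genes were higher and 4.12% lower. In the same comparison 7 of the 14 RNA and translation genes were higher in M (Ifit1, Isg15, Oas3, Eif2ak2, Zc3hav1, Ifit2 and Samhd1) and 7 were not called, with a median of 0.33. Without ET replicate 3 the counts of both lists were the same, 3 and 7 higher and 0 lower. In that fit 9.80% of all tested genes were called higher and 6.14% lower, so the same counts stood beside a larger share. These lists were chosen with earlier results of the same libraries known, and their link to the Schlafen levels was not tested.

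The genes whose levels followed the most abundant members most closely were sought over the 6 treated libraries, among tested genes with no Schlafen name. For Slfn2 these were Atxn1l (Pearson r = 0.988), Mboat7 (0.9745) and Stx5a (0.974) on log2(CPM + 0.5). For Slfn4 they were Fbxo30, Spag9 and Itga4, each with r = 0.998. The values are the highest among all tested genes, on 6 points that share library and scaling, and for Slfn4 they include the step between ET and M, so they are given as a description with no test.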

How the data were processed

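Poly(A) RNA was sequenced in 9 libraries of RAW264.7 cells. Per the submitters' processing notes, the authors used cutadapt 1.9, HISAT2 2.2.1 and StringTie 2.1.6, with DESeq2 and edgeR without stated versions. The deposited counts are whole numbers per gene and library made by the authors, and the counting tool, strand setting and genome build are not given in the sources used here. The deposited FPKM values are, per the file headers, the authors' fragment values scaled by gene length and library depth. Each sample's label names its FPKM column, and the count column with the same ending was given to the same sample.

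The 11536 genes that reached 1 FPKM in 3 or more of the 9 libraries were tested on counts with edgeR 4.0.16 (quasi-likelihood, TMM factors, 1 fit of 3 groups, Benjamini-Hochberg at 0.05) in R 4.3.3. Standard errors are the size of the log2 fold change over the root of the F statistic. Levels are TMM-scaled CPM or the authors' FPKM. Only FPKM compares levels between genes. Members and lists were chosen with earlier results of these data known. Named genes were all Schlafen rows, the 2 members of each list with the smallest p in the comparison of both treated groups with Normal, and the 3 genes most like each of 2 members. Genes that went against their list, and called genes between M and ET, were named after their values were seen. Some genes of the lists are counted but not reported here by name. Alternatives were other scalings, no filter, DESeq2 1.42.0, limma 3.58.1 on FPKM, a replicate block, a fold threshold and each library left out, and, added after seeing the data, limma voom, gene lists without ET replicate 3 and lists without genes below 1 FPKM in every Normal library. The main edgeR fit was tested on simulated counts for M against ET only, and the other fits and comparisons were not.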

Additional observations from a re-analysis of the deposited data

How the results depend on the processing

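Over the 7 members and 17 other fits, the direction and the call held in 119 of 119 cases for M against Normal. The same was so for the mean of both treated groups against Normal. These cases include Slfn1 and Slfn5, which had to differ from Normal, and, for M, fits that left out only an ET library. For ET against Normal the number was 109 of 119 (10 calls lost, all of Slfn8 or Slfn9). For M against ET it was 111 of 119, which counts members that stayed uncalled as held. There 6 calls were lost, all of Slfn4, 1 was gained and 1 direction was reversed. The number of members called between M and ET was 2, and it was 1 with no filter on low values, 1 with limma on log2(FPKM + 0.1), 0 when a fold of at least 1.5 was also asked for, and 1 to 3 with each library left out in turn. With no filter Slfn4 had an adjusted p of 0.0526 between M and ET, and with limma on log2(FPKM + 0.1) 0.0529. Without ET replicate 1 the difference of Slfn9 between M and ET turned to -0.014, and without ET replicate 3 it was 0.22 and called, and the cause was not tested. Slfn9 in ET against Normal was also not called with no filter (adjusted p = 0.0584) or with limma (0.110 and 0.112), and Slfn8 was not called with limma on log2(FPKM + 0.1) (0.0612). The replicate block changed no call of a member (7, 7 and 2 of 7). Deviations of same-numbered libraries from their group means had correlations of only -0.068 to 0.051, so the numbers were not taken as pairs. Between ET and M the same-numbered libraries were at 0.049, 0.051 and 0.037. The differently numbered ones were at -0.044 to -0.0025, so a slight pattern by number was present there. Counts in place of FPKM, which weigh long transcripts more, gave Slfn2 13.1%, 45.7% and 42.2% of the family in Normal, ET and M.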
